A study of Mus musculus with 10 samples.

Results

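Adipocyte markers were examined in gastrocnemius, a calf muscle, of mice that lost myostatin as adults. The markers are 10 genes chosen by name: Adipoq, Retn, Lep, Cfd, Plin1, Cidec, Lipe, Fabp4, Thrsp and Car3. Probe sets annotated to a marker alone were taken, and 17 of the 45101 probe sets qualified, for 8 of the 10 genes. Plin1 and Cfd carried no such probe set in the annotation used and are not analysed here. The 5 Floxed_Mstn mice had floxed myostatin genes (genotype label Mstn ko) and the 5 WT_Mstn mice had normal myostatin genes. All 10 were C57BL/6-background males of 7.5 months, carried the CAGG-CreER transgene and had 8 tamoxifen injections starting at 4 months of age. CreER is a Cre recombinase that acts once tamoxifen is given, and CAGG is a promoter active in most tissues, so the design does not limit the deletion to muscle fibres. No probe set was annotated to Mstn in the annotation used, which does not list all probe sets, so the targeted transcript is not analysed here. The labels do not say how the mice relate to each other, and each array holds the RNA of the muscle with whatever other tissue it contains.

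White adipocytes store triglyceride in a large lipid droplet and release hormones into the blood. In skeletal muscle they lie between the fibres and bundles, so their transcripts in a whole-muscle extract come with the fat tissue that the sample holds. Several of these genes are also used elsewhere: Fabp4 by capillary endothelium, Car3 by muscle fibres, and Lipe, the hormone-sensitive lipase, at low level by muscle fibres. Transcription of the adipocyte genes is driven largely by the nuclear receptor PPAR-gamma and by C/EBP factors. Fewer cells of a type and less RNA per cell cannot be told apart in these arrays.

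The 250 bases before the transcription start are shown for Adipoq, for Retn and Cidec, whose levels each varied with Adipoq over the arrays, and for Lep, which was near the background on most arrays. The sequences are from RefSeq (GRCm38.p6), read 5′ to 3′ on the gene's own strand. Capitals mark matches to the CCAAT box (letters CCAAT) and to a C/EBP-type motif (letters TTNNGNAA), each searched on both strands. Cidec has a pair of windows in the table, and the one farther upstream is printed.
Adipoq, chr16:23146286-23146535, plus strand: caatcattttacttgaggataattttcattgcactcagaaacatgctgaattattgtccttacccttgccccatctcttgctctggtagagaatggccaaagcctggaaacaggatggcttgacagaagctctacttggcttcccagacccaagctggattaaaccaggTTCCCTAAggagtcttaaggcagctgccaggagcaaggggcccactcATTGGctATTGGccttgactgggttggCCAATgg
Retn, chr8:3655520-3655769, plus strand: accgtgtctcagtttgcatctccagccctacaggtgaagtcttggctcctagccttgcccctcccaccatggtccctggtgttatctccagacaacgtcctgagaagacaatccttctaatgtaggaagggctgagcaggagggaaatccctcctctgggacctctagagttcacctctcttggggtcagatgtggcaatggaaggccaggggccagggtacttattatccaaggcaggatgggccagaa
Cidec, chr6:113435761-113436010, minus strand: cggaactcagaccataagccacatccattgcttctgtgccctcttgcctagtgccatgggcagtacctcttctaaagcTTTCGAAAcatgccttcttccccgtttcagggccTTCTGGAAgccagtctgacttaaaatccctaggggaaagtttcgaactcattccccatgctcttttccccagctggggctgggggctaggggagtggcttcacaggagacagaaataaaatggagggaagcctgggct
Lep, chr6:29059971-29060220, plus strand: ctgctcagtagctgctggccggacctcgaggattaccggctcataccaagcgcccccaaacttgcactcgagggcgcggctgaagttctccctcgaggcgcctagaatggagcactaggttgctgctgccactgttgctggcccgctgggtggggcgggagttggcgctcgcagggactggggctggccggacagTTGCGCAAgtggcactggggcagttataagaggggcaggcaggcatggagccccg
The Adipoq window holds CCAAT letters 34, 27 and 7 bases before the start and a C/EBP-type match 81 bases before it. The Lep window holds a C/EBP-type match 55 bases before the start, and the Cidec window holds matches at 172 and 138 bases. The Retn window holds neither motif. Windows were given for 6 of the 8 measured genes, 8 windows in all. TTNNGNAA was in 4 of these 8 windows and in 36.8% of 32851 promoter windows, and CCAAT was in 2 of 8 and in 33.8%. AGGTCA, a nuclear receptor motif (in 14.0% of all windows), was in 0 of 8, and TATAAA, the TATA box letters (in 12.4%), likewise. The 2 motifs marked with capitals do not overlap in the printed windows. A match is only a run of letters and no binding was measured here.

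The values are log2 of the deposited microarray intensity. The arrays' highest values lay between 16.01 and 16.07, and a mean of 4 or more over all arrays was needed for the test, since dim probe sets sit near a floor. Of the 17 marker probe sets 12 were tested, for 6 genes, and Lep and Lipe were below the filter. Skeletal muscle genes were bright on every array (10 of 10 listed genes tested, list mean 15.11 to 15.17 in Floxed_Mstn mice and 15.10 to 15.17 in WT_Mstn mice). Bacterial RNA added as a hybridisation control averaged 12.25 to 12.90 in Floxed_Mstn mice and 12.37 to 12.78 in WT_Mstn mice. Floxed_Mstn 3 had the highest of these values, and was the lowest of the 10 arrays for 21.5% of the 10704 genes tested. WT_Mstn 3 was lowest for 29.6% of them and each other array for 3.81% to 12.3%. The difference between 3′ and 5′ Gapdh probe sets, a sign of RNA integrity, was 0.48 in Floxed_Mstn 3, against 0.40 to 0.47 in the other Floxed_Mstn mice and 0.47 to 0.53 in WT_Mstn mice.

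No adipocyte marker passed the test between Floxed_Mstn and WT_Mstn muscle. By limma with Benjamini-Hochberg adjustment over 21154 probe sets, 0 of 12 marker probe sets had an adjusted p under 0.05, where 0.0993% of all probe sets did (0.052% higher and 0.0473% lower in Floxed_Mstn mice). At an unadjusted p under 0.05 there was 1 of 12 (a Car3 probe set), where all probe sets gave 7.69%. Means were higher in Floxed_Mstn mice for 7 of 12, against 49.2% of all probe sets. None of the 12 had groups that did not overlap, against 2.06% of all probe sets. By the brightest probe set of each gene, 5 of 8 genes had a higher mean in Floxed_Mstn mice (Retn, Cidec, Lipe, Thrsp, Car3) and 3 a lower one (Adipoq, Lep, Fabp4). The median difference of the 6 genes tested was 0.11 (log2), beside -0.0049 over all 10704 genes, and 4 of 6 were higher, beside 48.5% of all genes. Without Floxed_Mstn 3 the median was 0.38. The intervals of Adipoq, Retn and Cidec were wide, so these tests do not show that their levels were alike.

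**Figure D1:**
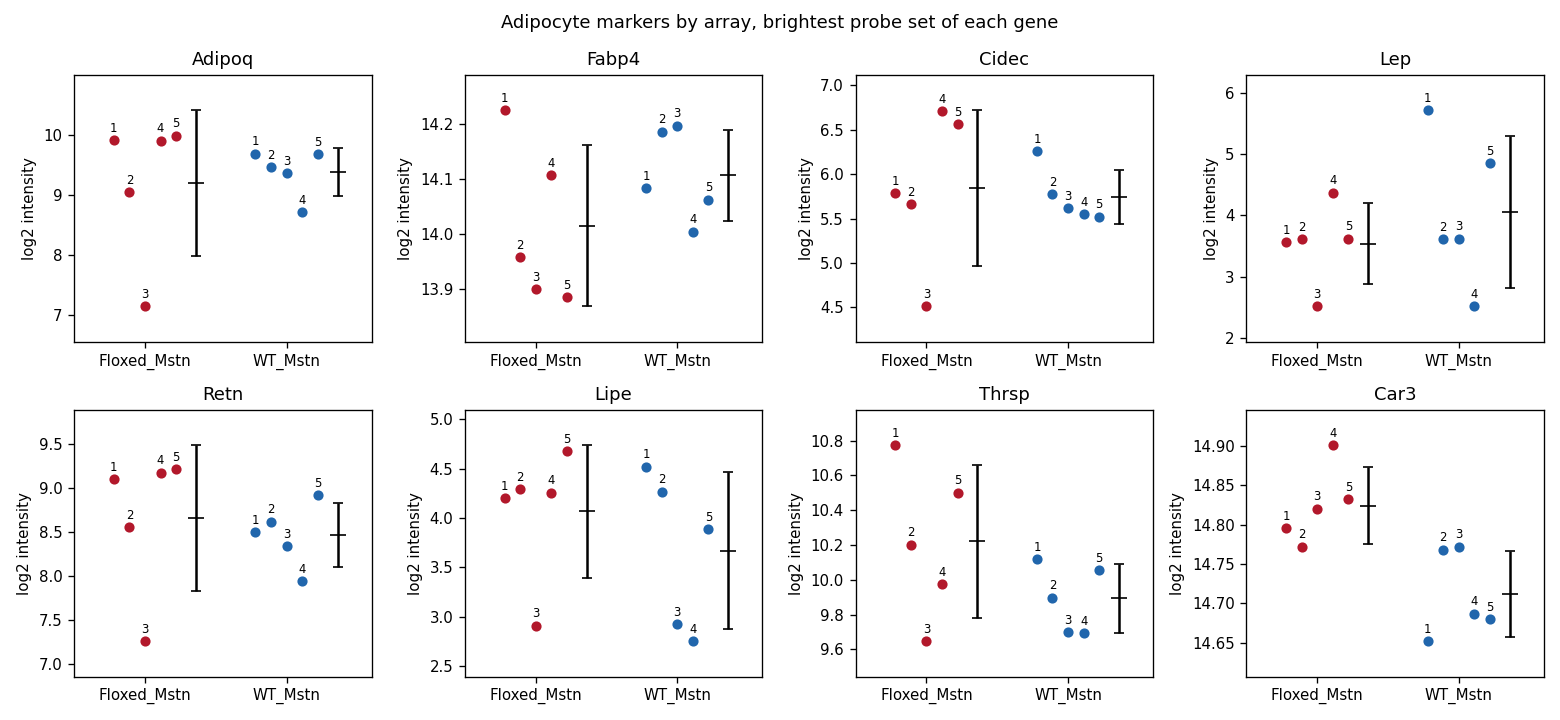
Log2 intensity of the brightest probe set of each measured adipocyte marker on each array, where Floxed_Mstn mice are red and WT_Mstn mice blue, with replicate numbers, the mean and SD (n = 5) in black and a scale for each panel, and Floxed_Mstn 3 is the lowest of the 10 for Adipoq (7.14), Retn (7.25), Cidec (4.51) and Thrsp (9.65).

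Adipoq encodes adiponectin, a hormone made almost only by adipocytes. Its log2 intensity (probe set 1422651_at) was 9.91, 9.05, 7.14, 9.90 and 9.99 in Floxed_Mstn mice 1 to 5, against 9.68, 9.46, 9.36, 8.71 and 9.67 in WT_Mstn mice 1 to 5. Floxed_Mstn 3 lay far below every other mouse, and 3 of the other Floxed_Mstn mice lay above every WT_Mstn mouse. Means were 9.20 ± 1.21 in Floxed_Mstn mice and 9.38 ± 0.40 in WT_Mstn mice (SD, n = 5 each). The difference was -0.18 ± 0.52 (SE), with a 95% interval from -1.33 to 0.97, or 0.397-fold to 1.96-fold (limma adjusted p = 0.986). Without Floxed_Mstn 3 the other Floxed_Mstn mice averaged 9.71 ± 0.44 (SD) and the difference was 0.34 (adjusted p = 0.792, range over the alternatives 0.769 to 0.9995), so its sign rests on that array.

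Retn encodes resistin, a hormone that mouse adipocytes secrete. Its log2 intensity (probe set 1449182_at) was 9.10, 8.55, 7.25, 9.17 and 9.22 in Floxed_Mstn mice 1 to 5, against 8.50, 8.62, 8.34, 7.94 and 8.92 in WT_Mstn mice 1 to 5. The same 3 Floxed_Mstn mice (1, 4 and 5) lay above all WT_Mstn mice and Floxed_Mstn 3 lay below them all. The difference was 0.20 ± 0.37 (SE), with a 95% interval from -0.63 to 1.02 (limma adjusted p = 0.978). It was 0.55 without Floxed_Mstn 3, and 0.09, 0.07, 0.06 and 0.07 without Floxed_Mstn 1, 4 or 5 or WT_Mstn 4.

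Lep encodes leptin, the hormone by which fat stores signal to the brain. Its probe set (1422582_at) lay under the filter, with a log2 intensity of 3.56, 3.61, 2.52, 4.37 and 3.62 in Floxed_Mstn mice 1 to 5, against 5.72, 3.61, 3.62, 2.51 and 4.85 in WT_Mstn mice 1 to 5. The highest values were those of WT_Mstn 1 and 5, and the lowest those of Floxed_Mstn 3 and WT_Mstn 4. The means differed by -0.53 (two-sided exact permutation, p = 0.389, n = 5 each, where 0.00794 is the smallest p possible). Leaving out 1 array gave -0.11 without WT_Mstn 1, -0.27 without Floxed_Mstn 3, -0.33 without WT_Mstn 5 and -0.91 without WT_Mstn 4. Differences this near to the floor can be compressed.

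Cidec encodes a lipid droplet protein that lets droplets fuse into the single large droplet of white adipocytes. Its log2 intensity (probe set 1452260_at) was 5.78, 5.66, 4.51, 6.71 and 6.56 in Floxed_Mstn mice 1 to 5, against 6.26, 5.77, 5.62, 5.55 and 5.52 in WT_Mstn mice 1 to 5. Floxed_Mstn mice held both the highest values, in mice 4 and 5, and the lowest, in mouse 3. The difference was 0.10 ± 0.38 (SE), with a 95% interval from -0.74 to 0.94 (limma adjusted p = 0.991). It was 0.43 without Floxed_Mstn 3, -0.12 without Floxed_Mstn 4 and -0.08 without Floxed_Mstn 5.

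Lipe encodes hormone-sensitive lipase, which releases fatty acids from stored fat. Its brighter probe set (1422820_at) had 4.20, 4.29, 2.91, 4.25 and 4.68 in Floxed_Mstn mice 1 to 5, against 4.52, 4.26, 2.93, 2.76 and 3.88 in WT_Mstn mice 1 to 5 (log2 intensity), and was not tested because its mean over all arrays was 3.87. Floxed_Mstn 3, WT_Mstn 3 and WT_Mstn 4 were below 3 and the groups overlapped. The means differed by 0.40 (two-sided exact permutation, p = 0.357, n = 5 each). The difference was 0.69 without Floxed_Mstn 3, 0.61 without WT_Mstn 1, and 0.24, 0.21 and 0.17 without Floxed_Mstn 5, WT_Mstn 3 or WT_Mstn 4. It was 0.13 with values below 4 set to 4 and 0.18 over the mean of both probe sets. Its other probe set stayed between 2.25 and 2.57 on all arrays.

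Fabp4 encodes a fatty acid carrier of adipocytes, macrophages and capillary endothelium. Its brightest probe set (1451263_a_at) had 14.22, 13.96, 13.90, 14.11 and 13.88 in Floxed_Mstn mice 1 to 5, against 14.08, 14.19, 14.20, 14.00 and 14.06 in WT_Mstn mice 1 to 5 (log2 intensity). Floxed_Mstn 2, 3 and 5 lay below every WT_Mstn mouse, while Floxed_Mstn 1 lay above them all. The difference was -0.09 ± 0.08 (SE), with a 95% interval from -0.28 to 0.10, or 0.823-fold to 1.07-fold (limma adjusted p = 0.905). It was -0.14 without Floxed_Mstn 1 and -0.06 without Floxed_Mstn 5. Another probe set (1417023_a_at) differed by -0.09 and 1424155_at by 0.05 (adjusted p = 0.908 and 0.991), while 1425809_at was below 3 on every array and was not tested. Endothelial markers, listed because Fabp4 is also made there, had a median difference of -0.21 over 12 genes, 10 of them lower. Their list mean was 8.21 to 8.38 in Floxed_Mstn mice and 8.23 to 8.63 in WT_Mstn mice. Their part in the Fabp4 values was not tested.

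Thrsp encodes Spot 14, a nuclear protein tied to fatty acid synthesis in fat and liver. Its brightest probe set (1424737_at) had 10.77, 10.20, 9.65, 9.98 and 10.50 in Floxed_Mstn mice 1 to 5, against 10.12, 9.90, 9.70, 9.69 and 10.06 in WT_Mstn mice 1 to 5 (log2 intensity). Floxed_Mstn 1, 2 and 5 lay above all WT_Mstn mice, and Floxed_Mstn 3 lay just below them all. The difference was 0.33 ± 0.20 (SE), with a 95% interval from -0.12 to 0.77 (limma adjusted p = 0.789). It was 0.19 without Floxed_Mstn 1 and 0.47 without Floxed_Mstn 3. Over the mean of all its probe sets, which includes 1444166_at near the floor, it was 0.19. Probe set 1422973_a_at gave 0.25 ± 0.25 (SE, limma adjusted p = 0.92), and 1444166_at was at 2.21 to 2.24 on all arrays.

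Car3 encodes carbonic anhydrase III, abundant in adipocytes and in slow muscle fibres, and its 4 probe sets did not move alike. The brightest (1449434_at) had 14.80, 14.77, 14.82, 14.90 and 14.83 in Floxed_Mstn mice 1 to 5, against 14.65, 14.77, 14.77, 14.69 and 14.68 in WT_Mstn mice 1 to 5 (log2 intensity). Floxed_Mstn 2 was level with WT_Mstn 2 and 3, the highest of their group, and the other Floxed_Mstn mice lay above all WT_Mstn mice. The difference was 0.11 ± 0.06 (SE, 95% interval -0.02 to 0.24, limma adjusted p = 0.729), near the top of the scale where differences can be compressed. Exact permutation gave an unadjusted p = 0.0159, the lowest of the marker probe sets, where 0.00794 is the smallest possible. Probe set 1460256_at had 12.11, 12.52, 12.54, 12.81 and 12.58 in Floxed_Mstn mice, against 12.18, 12.41, 11.69, 12.00 and 12.28 in WT_Mstn mice. This probe set had the lowest limma p of the marker probe sets (0.40 ± 0.16 SE, 95% interval 0.04 to 0.76, unadjusted p = 0.0314, adjusted p = 0.584), and only Floxed_Mstn 1 lay within the WT_Mstn range. Probe sets 1453588_at and 1430584_s_at gave -0.36 ± 0.36 and -0.04 ± 0.44 (SE, limma adjusted p = 0.92 and 0.996) and varied widely within both groups, the dimmer by 4.21-fold over the arrays. On both of these, the 4 highest arrays were Floxed_Mstn 3, Floxed_Mstn 4, WT_Mstn 2 and WT_Mstn 3. Floxed_Mstn 3 and WT_Mstn 3 were also among the 3 arrays of highest hybridisation controls, while Floxed_Mstn 4 and WT_Mstn 2 were not. Floxed_Mstn 1, the other of those 3 arrays, had 10.44 and 8.85 on these probe sets. Over the mean of the 4 probe sets the difference was 0.03. Slow fibre genes had lower means for 10 of 11 members (median -0.26), with a list mean of 12.26 to 13.70 in Floxed_Mstn mice and 12.87 to 13.77 in WT_Mstn mice. Floxed_Mstn 1 was the lowest of the 10 arrays for each slow fibre gene but Csrp3 and Myoz2. Myh7 was at 12.33 there, against 13.57 to 14.37 in the other Floxed_Mstn mice. The slow fibre median without Floxed_Mstn 1 was not computed. The part of slow fibre genes in the Car3 values was not tested.

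**Figure D2:**
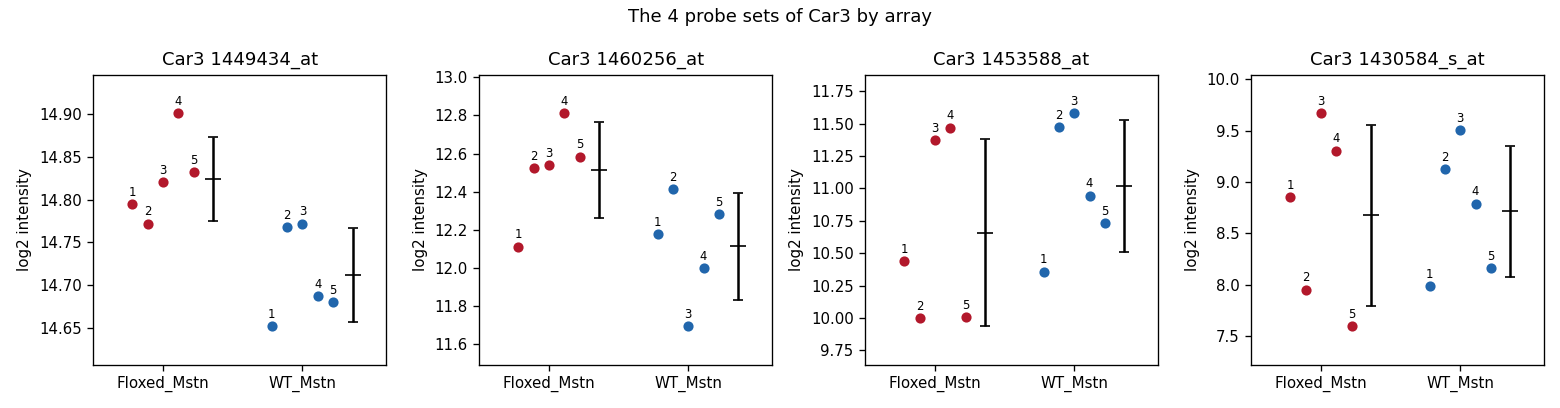
Log2 intensity of the 4 Car3 probe sets on each array, brightest on the left, with Floxed_Mstn mice in red, WT_Mstn mice in blue, replicate numbers above the points and the mean and SD (n = 5) in black. The 2 brightest are higher by 0.11 and 0.40 in Floxed_Mstn mice, and the other 2 differ by -0.36 and -0.04, none past the threshold.

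**Figure D3:**
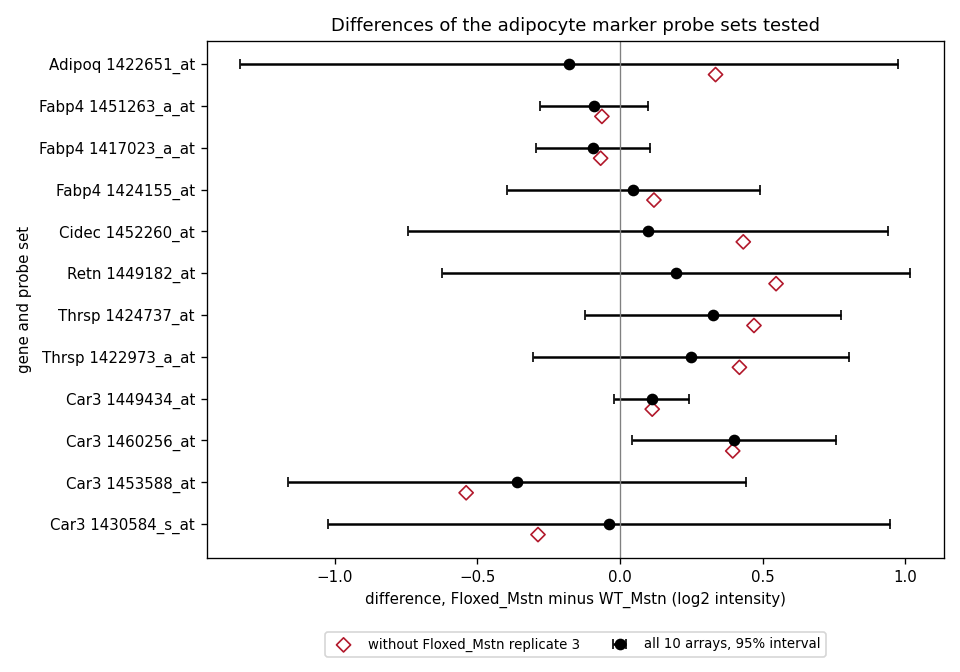
Difference between Floxed_Mstn and WT_Mstn means (log2) with its 95% interval for the 12 marker probe sets tested, and as open diamonds the same difference without Floxed_Mstn 3. Every interval but that of Car3 1460256_at (0.04 to 0.76) spans 0, and Adipoq moves to 0.34, against -0.18 with all arrays.

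The spread between mice was wide for Adipoq, Retn and Cidec, and much of it came from Floxed_Mstn 3. Adipoq spanned 7.17-fold from its lowest to its highest array, Cidec 4.59-fold, Retn 3.89-fold and Thrsp 2.18-fold. Without Floxed_Mstn 3 these spans were 2.42-fold, 2.28-fold, 2.42-fold and 2.12-fold in the same order. The pooled SD within groups was 0.90 for Adipoq, 0.66 for Cidec and 0.64 for Retn (log2), beside a median of 0.22 over all genes tested. The SD of Adipoq was larger than that of 97.9% of the genes tested, Cidec's than 94.3% and Retn's than 93.9%. Without Floxed_Mstn 3 their SDs were 0.42, 0.42 and 0.34, larger than those of 84.0%, 83.8% and 75.6% of genes. The brightest probe sets of Fabp4 and Car3 spanned 1.27-fold and 1.19-fold, near the top of the scale where the span can be limited. Dimmer Car3 probe sets spanned from 2.17-fold (1460256_at) to 4.21-fold (1430584_s_at). The dimmer Fabp4 probe sets tested spanned only 1.35-fold (1417023_a_at) and 1.75-fold (1424155_at). Whether the scale limited the span of either gene was not tested.

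Retn and Cidec each varied with Adipoq from mouse to mouse, and the relation of Retn with Cidec was not computed. Adipoq and Retn had a Pearson r of 0.943 and a Spearman rho of 0.891 over the 10 arrays (permutation p = 9e-05 and 0.00122, adjusted 0.00072 and 0.00976 over the 8 relations computed). Without Floxed_Mstn 3 and WT_Mstn 4, the 2 arrays farthest from the median of Adipoq, r was 0.813. Adipoq and Cidec had r of 0.853 and rho of 0.806 (permutation p = 0.00123 and 0.00725, adjusted 0.00492 and 0.029), and r of 0.640 without those arrays. For Lipe r was 0.694 (rho 0.636, permutation p = 0.0145 and 0.0547, adjusted 0.0387 and 0.109). It dropped to 0.388 without both arrays, so it leans on them as a pair, and was 0.681 without Floxed_Mstn 3 alone. For Thrsp r was 0.619 and rho 0.770 (permutation p = 0.058 and 0.0127, adjusted 0.0951 and 0.0339), and r was 0.499 without both arrays. For Lep r was 0.628 and rho 0.479 (permutation p = 0.0594 and 0.166, adjusted 0.0951 and 0.266), and r was 0.203 without both arrays.

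The relations of Fabp4 and Car3 with Adipoq, both computed on their brightest probe sets near the top of the scale, did not pass the threshold. For Fabp4 r was 0.481 and rho 0.248 (permutation p = 0.156 and 0.491, adjusted 0.178 and 0.491), and r was 0.0017 without the 2 arrays. For Car3 r was -0.0018 and rho 0.273 (permutation p = 0.996 and 0.448, adjusted 0.996 and 0.491), while r was 0.296 without the 2 arrays and 0.449 without Floxed_Mstn 3 alone. Adipoq and the hybridisation controls had r of -0.564 and rho of -0.418 (permutation p = 0.0872 and 0.234, adjusted 0.116 and 0.312), and r of -0.112 without the 2 arrays. Relations within a group of 5 arrays are not given.

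**Figure D4:**
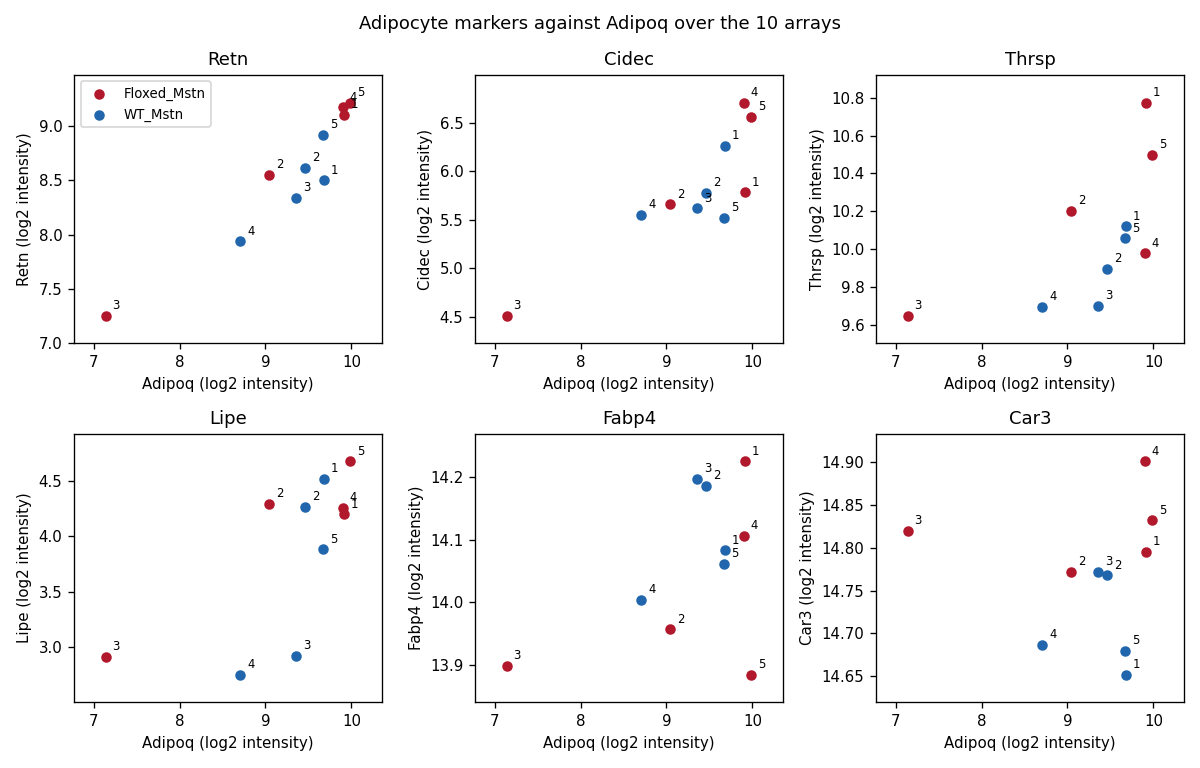
Each of 6 markers (vertical axis, log2 intensity) against Adipoq (horizontal axis, log2 intensity) over the 10 arrays, with Floxed_Mstn mice in red, WT_Mstn mice in blue and replicate numbers beside the points. Retn (r = 0.943) and Cidec (r = 0.853) rise with Adipoq, while Fabp4 (r = 0.481) and Car3 (r = -0.0018, or 0.449 without Floxed_Mstn 3) have lower r, and Floxed_Mstn 3 lies at the low end of Adipoq.

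Floxed_Mstn 3 was the lowest of the 10 arrays for 4 of the 8 measured markers (Adipoq, Retn, Cidec and Thrsp). Its Adipoq value lay 2.57 below the mean of the other Floxed_Mstn mice (a difference of -2.57 in log2), and only 0.103% of the genes tested lay farther below on that array. The same difference was -1.75 for Retn, -1.67 for Cidec, -1.44 for Lipe, -1.27 for Lep and -0.72 for Thrsp, beside a median of -0.13 over all genes. It was -0.14 for Fabp4 and -0.0056 for Car3. Floxed_Mstn 3 was also the lowest array of its group for the list means of endothelial genes (8.21), macrophage genes (7.59) and fibroblast and progenitor genes (9.68), and the highest of its group for slow fibre genes (13.70). Those lists had ranges in WT_Mstn mice of 8.23 to 8.63, 8.33 to 9.12, 10.21 to 10.66 and 12.87 to 13.77 in that order. Over all arrays their medians were -0.21, -0.39, -0.34 and -0.26, with no member past the threshold by limma (3, 0, 4 and 0 members at an unadjusted p under 0.05). Of all genes 0.131% passed the adjusted threshold and 8.9% the unadjusted one. Means were lower in Floxed_Mstn mice for 11 of 11 macrophage genes and 9 of 9 fibroblast and progenitor genes, where 48.5% of all genes had higher ones. Without Floxed_Mstn 3 the medians were -0.18, -0.28, -0.30 and -0.43, with 11 of 11 macrophage genes and 8 of 9 fibroblast and progenitor genes lower. The medians without Floxed_Mstn 1, the lowest array for most slow fibre genes, were not computed. The part of these cells, and of the hybridisation controls, in the adipocyte values was not tested.

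Genes whose pattern was most like the adipocyte markers were ranked by Pearson r with the mean of Adipoq and Cidec over the 10 arrays, among 10698 genes that are no marker. The 8 highest were Ifi27l2a, an interferon-inducible gene, Nemp1, a nuclear envelope protein, Pon1, the serum paraoxonase, Rnf166, a ubiquitin ligase, Tmem107, a protein of cilia, Mpzl2, an adhesion protein, Rint1, a vesicle transport protein, and Btd, the enzyme biotinidase. Their r ran from 0.928 to 0.944, where the median over all genes was 0.269. These genes were picked for high r out of many, and r takes no account of how much a gene varies. Btd was nearly flat, at 4.45 to 4.70 in Floxed_Mstn mice and 4.61 to 4.62 in WT_Mstn mice (log2, a 1.20-fold span). Mpzl2, with a mean of 4.16 over all arrays, lay near the filter level of 4. All 8 were lowest on Floxed_Mstn 3, as with Pon1 at 3.61 there against 6.18 to 6.95 in the other Floxed_Mstn mice and 5.76 to 7.08 in WT_Mstn mice. Without Floxed_Mstn 3 r was 0.905 for Tmem107 and 0.737 for Btd, the highest and lowest of the 8.

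Other adipocyte genes gave no call either: 17 of 19 had a probe set, 12 were tested, and 0 passed in either direction (limma, 1 at an unadjusted p under 0.05, where the share of all genes past the adjusted threshold was 0.131%, 0.0654% in each direction, and at the unadjusted one 8.9%). Their median difference was -0.32, with 5 higher and 7 lower, and -0.09 without Floxed_Mstn 3. Adig encodes adipogenin, a small membrane protein of fat cells, and had the lowest p of these genes. It had 8.34, 7.77, 7.32, 8.24 and 8.33 in Floxed_Mstn mice 1 to 5, against 7.10, 7.37, 6.54, 6.49 and 7.22 in WT_Mstn mice 1 to 5 (log2 intensity). Only Floxed_Mstn 3 and WT_Mstn 2 overlapped. The difference was 1.05 ± 0.25 (SE, limma adjusted p = 0.262), and 1.22 without Floxed_Mstn 3 (adjusted p = 0.128, range over the alternatives 0.0671 to 0.527). Aoc3, an amine oxidase of the adipocyte surface (-0.30, adjusted p = 0.717), Hp, encoding haptoglobin (-0.58, adjusted p = 0.839), and Trarg1, a regulator of glucose transporter traffic (-0.74, adjusted p = 0.839), had lower means. Without Floxed_Mstn 3 Hp differed by -0.28 and Trarg1 by -0.35. WT_Mstn 1, the highest array for Lep, was also the highest for Trarg1 (7.22) and Hp (8.91).

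Among genes of the lipid droplet and of lipolysis, 14 of 16 were tested and 0 passed (limma, 1 at an unadjusted p under 0.05, where all genes gave 0.131% and 8.9%), with a median of -0.03, 5 higher and 9 lower. Mgll, the monoglyceride lipase, had the lowest p (-0.27 ± 0.10 SE, adjusted p = 0.57). Plin3, a droplet coat protein, differed by 0.33 (adjusted p = 0.749), Pnpla2, the adipose triglyceride lipase, by 0.16 (adjusted p = 0.845) and Fitm2, which helps form droplets, by -0.12 (adjusted p = 0.816). Of the genes of fatty acid and triglyceride synthesis 17 of 18 were tested and 0 passed (limma, 2 at an unadjusted p under 0.05), with a median of -0.01, 8 higher and 9 lower, which became 0.08, 11 higher and 6 lower, without Floxed_Mstn 3. Elovl5, a fatty acid elongase, had -0.21 (adjusted p = 0.538), Srebf1, the lipogenic transcription factor, -0.41 (adjusted p = 0.645), Acacb, an acetyl-CoA carboxylase, 0.15 (adjusted p = 0.666) and Scd2, a desaturase, -0.35 (adjusted p = 0.697).

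Transcription factors of fat cell formation had 10 of 10 genes tested and 0 past the threshold, by limma with 0 also at an unadjusted p under 0.05. All genes gave 0.131% and 8.9%. The median of these 10 was -0.15, with 2 higher and 8 lower. Without Floxed_Mstn 3 the median was -0.03, with 4 higher and 6 lower. Pparg, encoding PPAR-gamma, had 5.44, 4.96, 5.01, 5.82 and 5.31 in Floxed_Mstn mice 1 to 5, against 5.95, 5.80, 4.82, 5.90 and 6.02 in WT_Mstn mice 1 to 5 (log2 intensity). Apart from WT_Mstn 3, the lowest of all, the WT_Mstn mice were near or above the highest Floxed_Mstn mouse. Its difference was -0.39 ± 0.25 (SE, limma adjusted p = 0.806). Rxra, the partner of PPAR-gamma, had -0.15 (adjusted p = 0.763), Ebf1 -0.24 (adjusted p = 0.833) and Cebpa -0.22 (adjusted p = 0.914, or a difference of -0.05 without Floxed_Mstn 3).

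Receptors for the adipocyte hormones were all tested (4 of 4) and 0 passed (limma, 1 at an unadjusted p under 0.05, where all genes gave 0.131% and 8.9%), 2 with higher and 2 with lower means (median -0.07). Without Floxed_Mstn 3 there were 3 higher and 1 lower, with a median of 0.08, and Lepr turned sign. Adipor1, a receptor for adiponectin, had 12.40, 12.47, 12.40, 12.58 and 12.53 in Floxed_Mstn mice 1 to 5, against 12.39, 12.30, 12.25, 12.35 and 12.38 in WT_Mstn mice 1 to 5 (log2 intensity). Every Floxed_Mstn value lay above every WT_Mstn value, as for 2.63% of all genes, and the difference was 0.15 ± 0.06 (SE, limma adjusted p = 0.642). Cdh13, which binds adiponectin on vessels, had -0.20 (adjusted p = 0.675), Lepr, the leptin receptor, -0.24 (adjusted p = 0.961, or a difference of 0.08 without Floxed_Mstn 3) and Adipor2 0.06 (adjusted p = 0.927). Of the relatives of Car3 and Fabp4, 6 of 11 were tested and 0 passed (limma, 2 at an unadjusted p under 0.05, where all genes gave 0.131% and 8.9%), with a median of -0.04, 2 higher and 4 lower. Car14 had 0.58 ± 0.19 and Car8 -0.27 ± 0.09 (SE, adjusted p = 0.49 each), Car2 0.15 (adjusted p = 0.917) and Car4 -0.21 (adjusted p = 0.942).

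Brown fat genes gave no difference between the groups past the threshold (5 of 10 tested, 0 passed, median 0.08, 3 higher and 2 lower, or -0.0015, 2 higher and 3 lower, without Floxed_Mstn 3), and 0 of 5 had an unadjusted p under 0.05, where all genes gave 0.131% and 8.9%. Dio2, which activates thyroid hormone, had 0.08, Zic1 0.10, Ppargc1a -0.07 and Ppara -0.15 (limma adjusted p = 0.957 to 0.987). Ucp1, Cidea, Elovl3, Otop1 and Lhx8 lay under the filter and were not tested, so the lack of calls does not cover them. Ucp1 and Cidea were singled out after their values were seen. Ucp1, the uncoupling protein by which brown fat makes heat, was at 5.63 in Floxed_Mstn 1, against 2.26 to 2.47 in the other Floxed_Mstn mice and 2.26 to 2.74 in WT_Mstn mice. Cidea, a lipid droplet protein typical of brown fat, was at 6.39 in Floxed_Mstn 1, against 2.72 to 3.34 in the other Floxed_Mstn mice and 2.35 to 3.95 in WT_Mstn mice. Elovl3, another brown fat gene, was at 2.20 to 2.23 on every array. Floxed_Mstn 1 was also the highest array for Thrsp (10.77).

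**Figure D5:**
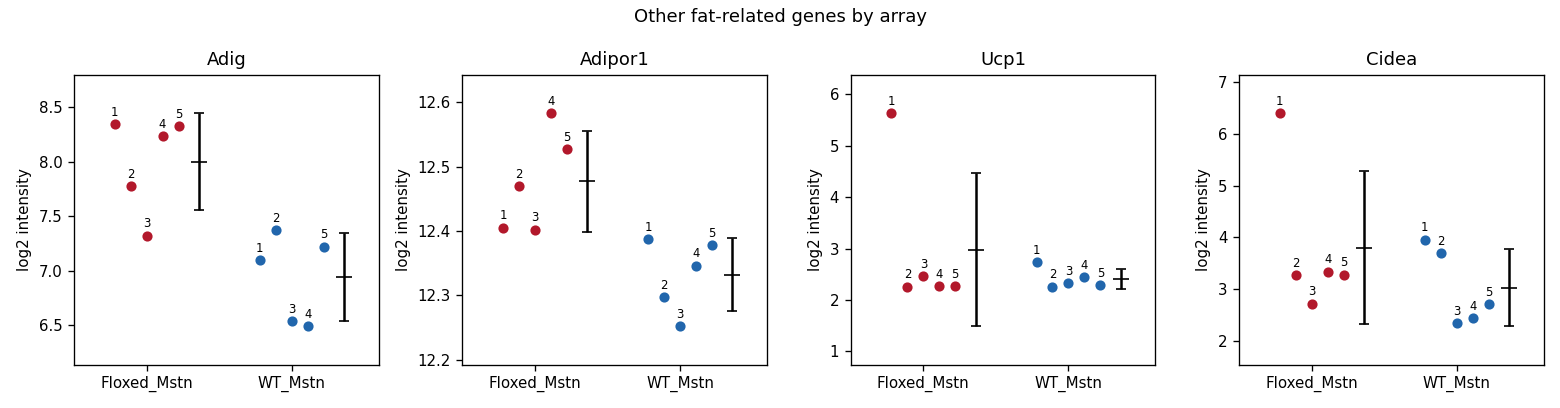
Log2 intensity of Adig, Adipor1, Ucp1 and Cidea on each array, with Floxed_Mstn mice in red, WT_Mstn mice in blue, replicate numbers above the points and the mean and SD (n = 5) in black. Adig differs by 1.05 with 1 pair of mice overlapping, Adipor1 by 0.15 with no overlap, and Ucp1 (5.63) and Cidea (6.39) are high in Floxed_Mstn 1 alone.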

How the data were processed

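RNA of gastrocnemius muscle was measured on 10 arrays, 5 per group. The deposited values are linear intensities made with GCRMA, per the submitters' processing notes. GCRMA subtracts background modelled from probe sequence, sets the arrays to a common distribution and reduces each probe set to a single value. Which version ran was not given in the sources used here. Dim probe sets sit near a floor. The log2 of the intensity was taken and nothing else was normalized. No arrays held identical values. Arrays have no read depth, so their number sets the precision.

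Gene names came from the platform's annotation of its probe sets (34958 with 1 symbol, 932 with several, 9211 not listed). Probe sets with a mean log2 of 4 or more were kept, without 64 array controls, and compared with limma 3.58.1 in R 4.3.3 (two-sided, Benjamini-Hochberg over all kept). Single values were compared by exact permutation over all 252 assignments of arrays, and relations by 100000 permutations. The fit was tested on simulated data. There it recovered 19.2% of log2 differences of 0.5, 64.6% of those of 1, 90% of those of 2 and 96.8% of those of 3. Changed probe sets were drawn at random, so these averages need not hold for Adipoq, Cidec and Retn. Their pooled SDs within groups were 0.90, 0.66 and 0.64, beside a median of 0.22 over all genes tested. The number of changed probe sets was set in advance and need not match the mice, and adjusted p values depend on it. Groups were taken from the sample titles, and p values measure only the spread between these mice. Markers, lists and tests were chosen with earlier results of these data known. The text names all markers, up to 4 genes of lowest p per fat-related list, the 8 genes most like the markers, and others where stated. The planned reference profile of Adipoq, Plin1, Cidec and Cfd held only Adipoq and Cidec. Deviations of same-numbered arrays from their group means correlated at -0.51, 0.13, 0.62, -0.20 and 0.19, so the numbers were not taken to pair the mice. Alternatives tried were another filter or none, a floor, median centring or quantile normalization, array weights, another variance model, a replicate block, hybridisation controls as covariate or as a reason to leave arrays out, the mean of a gene's probe sets, a fat covariate and each array left out. Promoters were read from RefSeq (GRCm38.p6). Python 3.11.15 with matplotlib 3.10.9 made the plots.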

Additional observations from a re-analysis of the deposited data

Results flagged for a closer look

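Among 88 groups of 5 arrays tested (44 genes), 12 held an array far from the other 4. Chance gives about 1 in 20 for independent groups of genes not picked on their values. These groups share the same arrays and some genes were picked on them, so the count cannot be set against that rate. The genes most like Adipoq and Cidec were picked on these arrays, and Ucp1 and Cidea after their values were seen. Floxed_Mstn 1 was high for Ucp1 (5.63 against 2.26 to 2.47 in the other Floxed_Mstn mice) and for Cidea (6.39 against 2.72 to 3.34), and low for Acacb (12.37 against 12.55 to 12.58). Floxed_Mstn 3 was low for Nemp1 (4.48 against 6.04 to 6.57) and Pon1 (3.61 against 6.18 to 6.95), and Floxed_Mstn 2 was low for Aoc3 (7.95 against 8.60 to 8.68). WT_Mstn 1 was high for Trarg1 (7.22 against 5.32 to 5.74 in the other WT_Mstn mice) and for Rnf166 (6.71 against 6.26 to 6.35). WT_Mstn 3 was low for Pparg (4.82 against 5.80 to 6.02) and high for Ebf1 (10.67 against 9.76 to 9.91). WT_Mstn 4 was low for Scd2 (10.14 against 10.33 to 10.40) and Ifi27l2a (10.75 against 11.41 to 11.58). All values are log2 intensities.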

How the results depend on the processing

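No marker probe set passed the threshold under any of the 20 alternatives run (limma, 0 to 2 at an unadjusted p under 0.05, lowest adjusted p 0.257), among them the fit with the replicate number as a block. Of 16 differences followed through the alternatives, 2 changed sign. Adipoq was 0.010 with array weights (adjusted p = 0.997), 0.26 (adjusted p = 0.769) when the 3 arrays with the strongest hybridisation controls were left out, and -0.38 to 0.34 with each array left out in turn, positive only without Floxed_Mstn 3. Cidec was -0.12 to 0.43 with each array left out in turn, and negative without Floxed_Mstn 4 or 5. The count over all probe sets, 21, became 11 with no filter, 36 after quantile normalization, 58 with a variance trend and robust fit, 67 with array weights and 89 with the hybridisation controls as a covariate. It became 5 without the 3 arrays just named, 1 with the replicate block, and 1 to 17 with each array left out in turn. The causes were not tested. Cidec, Lep and Lipe give no tested value with the filter at 6. With the mean of Adipoq and Cidec as a covariate, no other followed difference changed sign. Signal over background limits Lep and Lipe. The brightest probe sets of Fabp4 and Car3 lay near the top of the scale, and whether that compressed their differences was not tested.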
